A study of Mus musculus with 2 samples.

Results

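Collagen spots without muscle transcripts were spots of 1 liver section from a mouse fed a high-fat diet (HFD). They held transcripts of the fibrillar collagens but none of 3 smooth muscle genes. They were chosen among spots with at least 5000 unique molecular identifiers (UMIs, each standing for 1 captured RNA molecule) and 0 UMIs of Acta2, Tagln and Myh11. Those with at least 3 UMIs of Col1a1, Col1a2 and Col3a1 together were taken as collagen spots, and those with 0 UMIs of the 3 genes, called collagen-free spots here, served as their reference. Of 3594 HFD spots over tissue, 3469 reached the depth, 2001 of these had no muscle UMI, 617 were collagen spots and 483 were collagen-free, while the other 901 held 1 or 2 collagen UMIs. The whole series held 7286 spots over tissue in 2 sections.

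The section was measured with 10x Visium, in which tissue lies on barcoded capture spots, so that a spot is a small region with parts of several cells and not a cell. The HFD mouse and the mouse on normal chow (NCD) were male C57BL/6J, 5 weeks old at purchase, and both received distilled water by mouth during an 8-week intervention. The HFD mouse had first been on a 60% high-fat diet for 14 weeks, the NCD mouse on chow. Livers were cut at 10 µm. With 1 section per diet, diet, animal, section and slide cannot be told apart, and no test between groups of spots was possible, since spots of 1 section are not replicates. The intervals given after a ratio are therefore exact 95% intervals of counting error only, and they cover neither animals nor sections. The labels call the sample an immune cell type, but hepatocyte transcripts (Alb, Apoa1, Ttr, Apoa2, Apoc3, Rbp4, Trf and Fgb) made up 132557 counts per 1000000 UMIs (CPM) in the collagen spots and 138016 CPM in the collagen-free spots.

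Type I and type III collagen form the fibrils that are laid down when the liver scars. In the injured lobule they are made mainly by hepatic stellate cells, the vitamin A-storing pericytes of the sinusoids, which turn into myofibroblasts. Portal fibroblasts around bile ducts and veins and the smooth muscle of vessel walls make them as well, and α-SMA (Acta2), SM22 (Tagln) and the smooth muscle myosin heavy chain (Myh11) mark the contractile cells. The rule leaves out spots with transcripts of the muscle genes, so it asks which transcripts accompany collagen where none of these was seen. This sets aside vessel walls, and also any spot with Acta2 from myofibroblasts, which cannot be told apart here. A count of 0 in a spot does not show that muscle or myofibroblasts were absent from it.

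The 3 collagens lie on chromosome 11 at 94936224 to 94953042 (Col1a1), chromosome 6 at 4504814 to 4541544 (Col1a2) and chromosome 1 at 45311538 to 45349706 (Col3a1) in GRCm38. Shown are the 250 bases before the RefSeq start of Col1a2 (chr6:4505368-4505617, plus strand) and Col3a1 (chr1:45311288-45311537, plus strand), which chose the spots, and of Col6a3 (chr1:90843972-90844221, minus strand) and Dpt (chr1:164796413-164796662, plus strand), the leading genes outside the rule, all from GRCm38.p6. They show the start regions of genes that are high in the same spots, and read 5′ to 3′ on the gene's own strand. Capitals mark matches to the CCAAT box, to the TATA box written as TATAAA, to the GC box written as GGGCGG or to the AP-1 motif written as TGANTCA, each searched on both strands.
Col1a2: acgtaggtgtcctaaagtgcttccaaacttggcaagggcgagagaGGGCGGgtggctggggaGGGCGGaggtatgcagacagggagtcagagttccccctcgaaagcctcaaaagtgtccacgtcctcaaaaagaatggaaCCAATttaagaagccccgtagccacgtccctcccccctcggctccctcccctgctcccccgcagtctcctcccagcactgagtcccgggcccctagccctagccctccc
Col3a1: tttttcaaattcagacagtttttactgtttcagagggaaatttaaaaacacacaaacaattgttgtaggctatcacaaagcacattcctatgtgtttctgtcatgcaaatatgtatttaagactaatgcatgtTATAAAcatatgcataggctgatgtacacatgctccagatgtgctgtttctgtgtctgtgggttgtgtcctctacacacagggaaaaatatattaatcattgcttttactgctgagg
Col6a3: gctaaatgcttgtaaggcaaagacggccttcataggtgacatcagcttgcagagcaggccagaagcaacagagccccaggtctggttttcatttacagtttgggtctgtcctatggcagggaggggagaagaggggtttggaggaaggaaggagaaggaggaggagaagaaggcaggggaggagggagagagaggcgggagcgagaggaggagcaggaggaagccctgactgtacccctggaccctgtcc
Dpt: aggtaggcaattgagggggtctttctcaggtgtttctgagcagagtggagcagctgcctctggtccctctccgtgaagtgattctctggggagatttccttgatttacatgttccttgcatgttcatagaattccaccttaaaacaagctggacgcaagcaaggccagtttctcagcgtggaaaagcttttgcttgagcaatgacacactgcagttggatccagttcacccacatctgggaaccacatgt
Col1a2 had 1 CCAAT from -109 to -105 before the start and 2 copies of GGGCGG, Col3a1 had 1 TATAAA from -117 to -112, and the windows of Col6a3 and Dpt held none of the 4 motifs. Among 32851 promoters of this length, 33.9% held CCAAT, 32.7% GGGCGG, 12.4% TATAAA and 6.75% TGANTCA. A match is a match of letters only. The gene positions are from GENCODE, by which Col1a2 starts at 4504814 and Dpt at 164796644. The window before the RefSeq start thus lies within Col1a2 as listed by GENCODE, and the end of the Dpt window within Dpt. Of the 3 rule genes and the 15 leading genes named further on, 11 of 18 had a promoter entry.

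The collagen spots held 3110 collagen UMIs in all, from 3 to 36 per spot with a median of 4. Exactly 3 were found in 239 spots, exactly 4 in 140, 5 to 9 in 196, and 10 or more in 42 spots, which made up 6.81% of the collagen spots and 20.1% of their collagen UMIs. Most members therefore stood close to the threshold. Col3a1 gave 1875 UMIs in 598 spots, Col1a2 691 UMIs in 410 spots and Col1a1 544 UMIs in 325 spots, as UMIs without correction for length. All 3 genes were seen in 192 spots (31.1%), 2 of them in 332 and only 1 in 93. Per spot, the 3 collagens together ranged from 51.2 to 2480 CPM with a median of 205 CPM. Spots off tissue on the same capture area held 82.2 collagen CPM (70.6 to 95.2), so some collagen RNA lay outside the tissue.

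The collagens accompanied each other when each was held out in turn. Spots with at least 2 UMIs of the other pair held more Col1a1 than spots with none of the pair (26.2 against 11.9 CPM, 865 and 570 spots), a log2 ratio of 1.13 (0.82 to 1.46). For Col1a2 the values were 34.4 and 18.8 CPM, a log2 ratio of 0.87 (0.63 to 1.12), and for Col3a1 110 and 53.5 CPM, a log2 ratio of 1.04 (0.91 to 1.17). Each held-out gene was also measured in spots without the other pair.

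Collagen spots were deeper than collagen-free spots, and a deeper spot has more chance of showing any transcript. The collagen spots held 5262 to 58587 UMIs (median 21992) and the collagen-free spots 5024 to 38551 (median 12660), with medians of 4077 and 2940 genes. Each ratio was therefore computed from pooled counts, and again within 5 groups of depth cut at the quintiles of the collagen spots, combined as 1 stratified ratio. The shallowest group held 124 collagen and 283 collagen-free spots and the deepest 124 and 13, as the plot of depth shows. Mitochondrial transcripts made up 5.43% of UMIs in collagen spots and 5.75% in collagen-free spots.

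**Figure D1:**
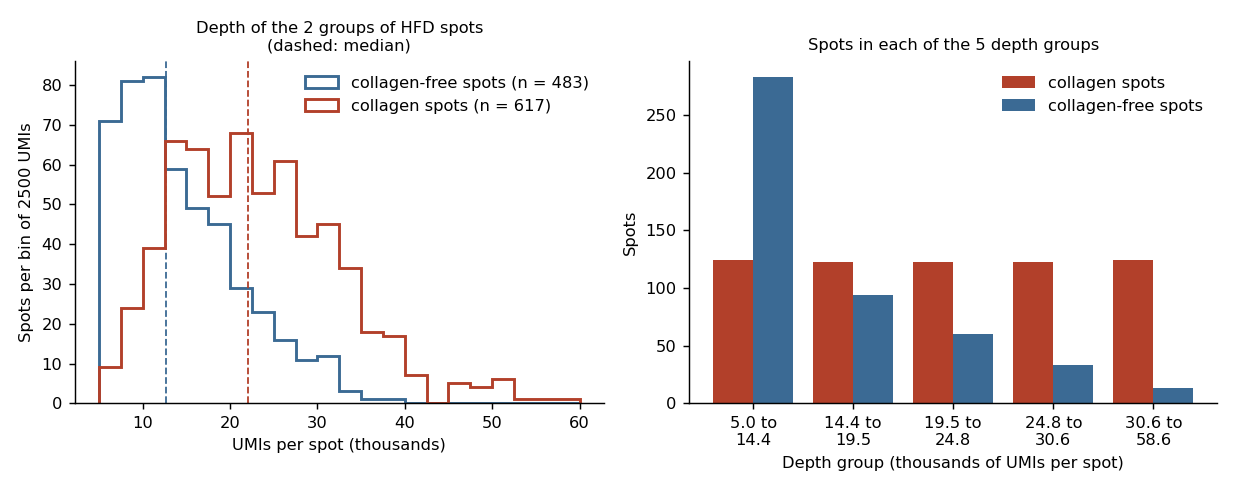
Depth of the HFD spots without muscle transcripts. Left, number of spots per depth bin against UMIs per spot for 617 collagen spots and 483 collagen-free spots, with dashed medians at 21992 and 12660 UMIs. Right, bars give the number of spots of each kind in the 5 depth groups, where collagen-free spots go from 283 in the shallowest to 13 in the deepest.

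Beside the collagens of the rule, the collagen spots held more transcripts of other fibroblast and stellate cell genes and fewer of some periportal hepatocyte genes. Among the 15 leading genes, Col6a3 (2.60-fold) and Dpt (2.64-fold) had the highest ratios, while lipid droplet and acute-phase transcripts were about the same in both kinds of spots. Of 8771 genes with at least 100 UMIs, 157 (1.79%) were at least 1.5-fold higher in collagen spots and 27 (0.308%) at least 1.5-fold lower. Within depth groups the numbers were 230 (2.62%) and 39 (0.445%), and 128 and 15 genes passed both ways. The counting interval lay above 0 for 802 genes (9.14%) and below 0 for 348 (3.97%), and the median log2 ratio of all genes was 0.04. The spots were chosen by the same counts, so these numbers describe the contrast and test nothing. In spots, more cells of a type and more RNA per cell cannot be told apart.

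Several of the leading genes encode proteins of the extracellular matrix. Col6a3, a chain of the microfibrillar type VI collagen (chromosome 1, 90765923 to 90843971), had 260 UMIs in collagen spots and 49 in collagen-free spots. This is 18.3 against 7.04 CPM, a log2 ratio of 1.38 (0.94 to 1.85), and 1.40 within depth groups. It ranged from 0 to 9 UMIs per collagen spot and from 0 to 2 per collagen-free spot, with a median of 0 in both, and was seen in 27.9% and 9.52% of them. With every spot thinned to 5000 UMIs, the shares were 8.59% (6.50 to 11.1) and 3.31% (1.91 to 5.32). The kinds of spots thus overlapped, and more of the collagen spots held the transcript.

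Dpt encodes dermatopontin, which binds decorin and collagen fibrils and marks fibroblasts of portal tracts and other tissues (chromosome 1, 164796644 to 164824266). Its log2 ratio was 1.40 (0.87 to 1.96), from 13.3 against 5.03 CPM, and 1.65 within depth groups. Per spot it ranged from 0 to 11 UMIs in collagen spots and from 0 to 2 in collagen-free spots. It was unevenly spread, as 29.8% of its 188 UMIs lay in the 10 richest collagen spots. In the 13 deepest collagen-free spots it was listed at 0, and in the first depth group it was at 20.6 against 6.96 CPM.

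Lum, the keratan sulfate proteoglycan lumican (chromosome 10, 97565128 to 97572703), was at 26.2 against 11.8 CPM, a log2 ratio of 1.15 (0.80 to 1.51), with the same value of 1.15 within depth groups. It was seen in 241 collagen spots (39.1%) with up to 10 UMIs and in 73 collagen-free spots (15.1%) with up to 2. Across the depth groups its log2 ratio lay between 0.89 and 1.68. Dcn, the collagen-binding proteoglycan decorin, was abundant in all spots, with a median of 7 UMIs (0 to 36) per collagen spot and 3 (0 to 21) per collagen-free spot. Its log2 ratio was 0.53 (0.45 to 0.61), from 355 against 246 CPM, and between 0.44 and 0.74 in each of the 5 depth groups. Sparc, a matricellular protein that binds collagen, was at 88.5 against 60.2 CPM (0.56, 0.39 to 0.72), and the log2 ratio of Ccdc80, another matrix protein, was 0.66 (0.38 to 0.94). Decorin was seen in 98.7% of collagen spots and 87.8% of collagen-free spots, and in 79.3% and 65.6% of them at 5000 UMIs, so the kinds of spots overlapped.

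Genes of stellate cells were the next group. Cygb encodes cytoglobin, an oxygen-binding globin of stellate cells, and was seen in 26.1% of collagen spots and 10.1% of collagen-free spots, with a log2 ratio of 1.00 (0.56 to 1.47) and 1.20 within depth groups. Sept4, a septin that stellate cells express, was at 13.3 against 6.18 CPM (1.11, 0.63 to 1.62), in 25.1% and 8.70% of spots. Adamtsl2, a secreted protein that binds fibrillin, was at 16.5 against 9.49 CPM (0.80, 0.40 to 1.22). Reln, the reelin made by stellate cells, was at 49.6 against 36.2 CPM (0.45, 0.24 to 0.67), and Lrat, which esterifies retinol for storage, at 13.4 against 10.1 CPM (0.41, 0.01 to 0.83). Des, the intermediate filament desmin, had 63 and 25 UMIs and an interval across 0 (0.31, -0.38 to 1.04).

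Genes of other cells also lead. Gsn, the actin-severing protein gelsolin that fibroblasts and mesothelium express strongly, was at 53.6 against 26.3 CPM, a log2 ratio of 1.03 (0.79 to 1.27). A few spots carried much of it, with up to 84 UMIs in 1 collagen spot against up to 3 in a collagen-free spot, and the 10 richest spots held 31.8% of its UMIs. Spp1, the phosphoprotein osteopontin of bile duct cells and macrophages, was at 159 against 91.1 CPM (0.80, 0.67 to 0.93), with a median of 2 UMIs (0 to 86) per collagen spot and 1 (0 to 11) per collagen-free spot. Fcgr3, an IgG receptor of macrophages and other myeloid cells, was at 27.3 against 16.8 CPM (0.70, 0.40 to 1.01), and Mfge8, which bridges dying cells to phagocytes, at 32.9 against 20.1 CPM (0.71, 0.43 to 0.99). Pakap (0.80, 0.38 to 1.24; the symbol has 2 identifiers, of which the one with counts was used) and the kinesin Kifc3 (0.84, 0.38 to 1.32) complete the 15 leading genes.

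**Figure D2:**
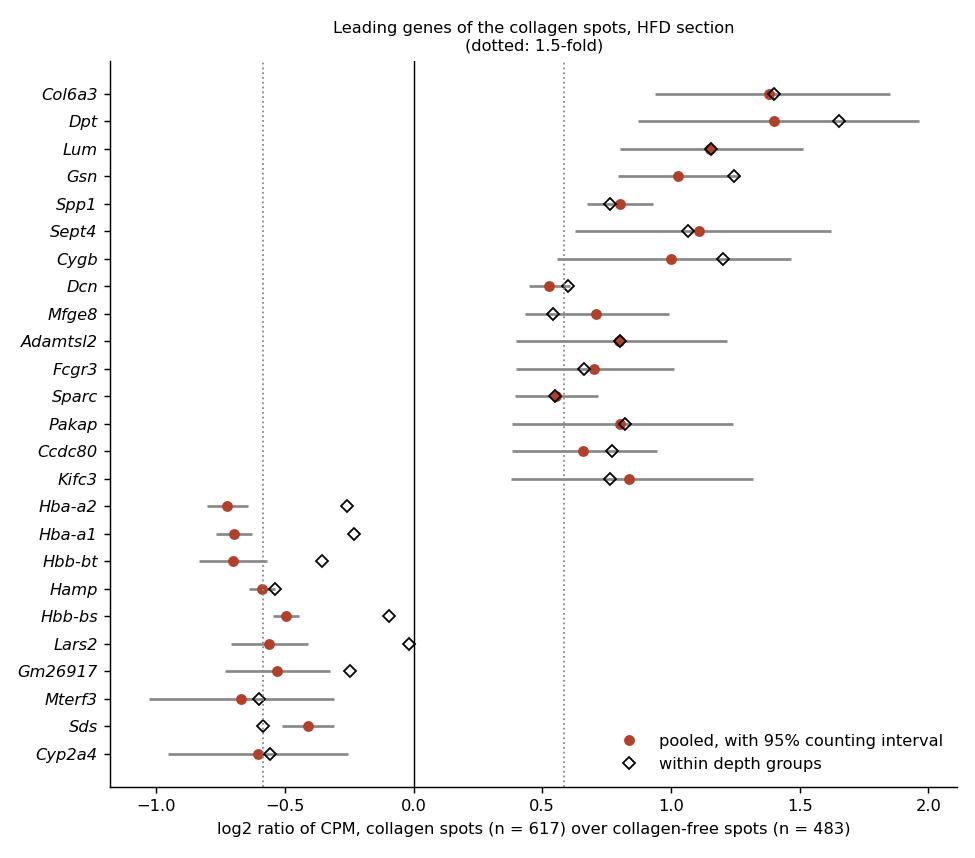
Log2 ratio of pooled CPM, collagen spots over collagen-free spots, for the 15 leading higher and 10 leading lower genes. Filled points are pooled ratios with 95% counting intervals, open diamonds are ratios within depth groups and dotted lines are 1.5-fold. The higher genes lie between 0.54 and 1.65 within depth groups, while the hemoglobin genes and Lars2 move towards 0.

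Lower in collagen spots were hepatocyte and red blood cell transcripts. Hamp, the hepatocyte hormone hepcidin that limits iron export, was at 489 CPM in collagen spots and 735 CPM in collagen-free spots, a log2 ratio of -0.59 (-0.64 to -0.54) and -0.54 within depth groups. Sds, the serine dehydratase of periportal hepatocytes, was at 146 against 194 CPM (-0.41, -0.51 to -0.31), and -0.58 within depth groups. Cyp2a4, a steroid hydroxylase (-0.61, -0.95 to -0.25), and Mterf3, a mitochondrial transcription factor (-0.67, -1.03 to -0.31), were lower with 162 and 151 UMIs in collagen spots. Hamp was below 0 in each depth group, from -1.04 to -0.32.

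The hemoglobin genes, the marks of red blood cells, stood out when pooled but depended on depth. Hba-a1 was at 255 against 414 CPM, a log2 ratio of -0.70 (-0.77 to -0.63), yet -0.23 within depth groups, where its values went from -0.80 in the shallowest group to 0.48 in the middle group. Hbb-bs was at -0.50 pooled and -0.09 within depth groups, and it turned to 0.09 when spots under 10000 UMIs were left out. Lars2, a mitochondrial leucyl-tRNA synthetase, was at -0.56 pooled and -0.02 within depth groups. The same held for 2 abundant non-coding RNAs, Gm42418 (-0.75 pooled and 0.09 within depth groups) and Malat1 (-0.46 and 0.06), which were outside the naming rule and chosen after their values were seen. Gm42418 reached 9848 CPM in the spots off tissue, against 1303 CPM in collagen spots. The lower values of Hbb-bs, Lars2, Gm42418 and Malat1 thus went with the depth of the spots. Hba-a2 (-0.72 pooled and -0.26 within depth groups) and Hbb-bt (-0.70 and -0.35) had stratified ratios still below 0, as did Hba-a1. From the shallowest to the deepest group, Hba-a1 was at -0.80, 0.09, 0.48, -0.41 and 0.13. Hba-a2 was at -0.84, 0.01, 0.47, -0.26 and 0.24. Their lower values thus lay mainly in the shallowest group, and a difference apart from depth was not tested.

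Lists of marker genes describe which cells and pathways the collagen spots held, and each is given by its counts and by its summed transcripts. In total, 246 of the 376 genes of 28 lists had at least 100 UMIs. The share of all tested genes at least 1.5-fold higher, 1.79%, is the background of each count of such genes. For intervals above 0 it is 9.14%, and for intervals below 0 it is 3.97%. Medians of the genes of a list stand beside the median of all genes, 0.04. Since the same contrast chose the spots, nothing is read from a count above its background. Among 19 other collagens, 11 reached this minimum, of which 3 were at least 1.5-fold higher and none lower, with a median log2 ratio of 0.46 against 0.04 for all genes. Beside Col6a3 these were Col5a2 (0.79, 0.25 to 1.37), a chain of the type V collagen that lies within type I fibrils, and Col6a1 (0.65, 0.18 to 1.15). Col5a1 (0.57, 0.12 to 1.04) and Col14a1 (0.55, 0.34 to 0.76), of which the second binds to the surface of fibrils, stood just below 1.5-fold. The summed log2 ratio of the list was only 0.16 (0.11 to 0.21), since 70.2% of its UMIs were those of Col18a1, a basement membrane collagen that hepatocytes make.

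Of 32 other matrix proteins, 20 reached the minimum. Lum and the microfibril protein Fbn1 (0.81, 0.15 to 1.51) were at least 1.5-fold higher and none was lower. Efemp2, which helps to build elastic fibres, was at 0.54 (-0.02 to 1.14). Fn1 and Vtn, the plasma proteins fibronectin and vitronectin that hepatocytes secrete, held most UMIs. With them, both matrix lists together had a summed log2 ratio of 0.11 (0.08 to 0.13), and without them, a choice made after seeing the data, of 0.33 (0.30 to 0.37). The 31 matrix genes at the minimum had a median of 0.46, against 0.04 for all genes.

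Collagen is also folded, cross-linked and degraded by dedicated enzymes. Of 15 assembly genes at the minimum, 3 were at least 1.5-fold higher. These were Loxl1, a lysyl oxidase that cross-links elastin and collagen, with 107 against 19 UMIs (1.47, 0.75 to 2.25), Adamts2, which cleaves the procollagen N-propeptide (0.96, 0.44 to 1.53), and Pcolce, which enhances cleavage of the C-propeptide (0.67, 0.25 to 1.12). Serpinh1, the collagen chaperone HSP47, was at 0.56 (0.31 to 0.81). The list's summed ratio was 0.04 (0.00 to 0.07), as P4hb, which hepatocytes use for other proteins too, made up 61.3% of its UMIs. Among the genes of matrix breakdown, 3 of 7 were at least 1.5-fold higher (1.79% of all tested genes), the inhibitors Timp1 (0.73, 0.12 to 1.38) and Timp2 (0.61, 0.27 to 0.95) and the gelatinase Mmp2 (0.66, -0.02 to 1.38). The membrane-bound protease Mmp14 was at 0.49 (0.01 to 0.99). The list's summed log2 ratio was 0.37 (0.24 to 0.49) and 0.47 within depth groups.

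Signalling genes that act on stellate cells were higher when summed. The 14 TGF-beta pathway genes at the minimum had a median log2 ratio of 0.28, against 0.04 for all genes. Only the latent TGF-beta binding protein Ltbp3 (0.65, -0.00 to 1.34) was at least 1.5-fold higher. Tgfb1, the ligand itself, was at 0.36 (-0.08 to 0.81), and Tgfbi, a matrix protein named for its induction by TGF-beta, at 0.36 (0.20 to 0.53). The summed ratio was 0.27 (0.20 to 0.35). Only Pdgfa (0.33, -0.12 to 0.80) and the receptor Pdgfrb (0.04, -0.49 to 0.58) of the 6 PDGF genes reached the minimum, and neither differed beyond counting error, while the 6 genes summed to 0.30 (0.03 to 0.57) and 0.39 within depth groups.

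The stellate cell list was higher as a whole. The 16 of its 21 genes that reached the minimum had a median log2 ratio of 0.40, against 0.04 for all genes. Intervals lay above 0 for 13 of them (9.14% of all tested genes). At least 1.5-fold higher were 3 (1.79% of all tested genes), Cygb, Adamtsl2 and the transcription factor Tcf21 (0.87, 0.24 to 1.56). The receptor Vipr1 was at 0.54 (0.19 to 0.90). The summed list made up 845 CPM in collagen spots and 702 CPM in collagen-free spots, a log2 ratio of 0.27 (0.22 to 0.32) and 0.30 within depth groups. After thinning, 97.9% of collagen spots and 96.1% of collagen-free spots held at least 1 UMI of the list, so that stellate cell transcripts were found in nearly all spots of both kinds.

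Transcripts of portal fibroblasts were low but had the highest summed ratio of the lists with over 100 UMIs in collagen spots. Their 10 genes summed to 81.4 CPM in collagen spots and 40.8 CPM in collagen-free spots, a log2 ratio of 1.00 (0.81 to 1.19) and 1.17 within depth groups. Gsn, which mesothelium also expresses, gave 65.6% of these UMIs. Only Dpt, Gsn and Entpd2 (0.38, -0.16 to 0.94) reached the minimum. Of the defining genes, Thy1 had 22 and 4 UMIs, Pi16 3 and 2, Clec3b 5 and 0, and Gli1 was at 0 in both. Between 0 and 106 UMIs of the list were found per collagen spot, and the 10 richest spots held 26.5% of them.

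Bile duct, large vessel and capsule transcripts were present in some of the same spots. The keratin Krt19 of duct cells had 26 UMIs in collagen spots and 3 in collagen-free spots, a log2 ratio of 2.09 (0.38 to 4.46), and Epcam 60 and 14 (1.07, 0.22 to 2.03). Of 4 duct genes at the minimum, Tspan8 was at least 1.5-fold higher (1.26, 0.52 to 2.08), and the 12 genes together had a ratio of 0.15 (0.03 to 0.27), with 75.9% of the UMIs from Cldn3, which did not differ (0.00, -0.13 to 0.14). Vwf, the von Willebrand factor of larger vessels, was at 8.68 against 5.46 CPM (0.67, 0.13 to 1.23), and the list of large vessel and lymphatic endothelium at 0.22 (0.12 to 0.32). Capsule genes had 23 and 4 UMIs, 17 and 3 of them from Gpm6a, while Upk3b, Upk1b, Lrrn4 and Bnc1 were at 0. So the absence of the 3 muscle genes did not remove every spot with portal or vessel transcripts.

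To see what these spots carried, spots with a UMI of Krt19, Epcam, Krt7, Ccl21a, Vwf, Mmrn1, Thy1, Pi16, Clec3b, Msln, Upk3b or Upk1b were left out of both kinds, a step added after the data were seen. It left 453 collagen and 418 collagen-free spots. Gsn then dropped from 1.03 to 0.34, Spp1 from 0.80 to 0.38, Dpt from 1.40 to 0.87 and Cygb from 1.00 to 0.62. Col6a3 (1.49), Sept4 (1.05), Lum (1.01), Dcn (0.53) and Sparc (0.53) stayed within their intervals in all spots. The stellate cell list was at 0.25 without these spots, and the genes at least 1.5-fold higher numbered 87. The ratios of gelsolin and osteopontin were thus smaller without spots with portal, duct, vessel or capsule transcripts, whereas those of type VI collagen, lumican and decorin stayed. This step was not repeated within depth groups. In all spots, the log2 ratio of Spp1 was 0.35 in the shallowest and 1.45 in the deepest depth group. The parts of depth and of portal, duct, vessel or capsule transcripts in these ratios were not tested.

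Smooth muscle genes outside the rule were a check of the exclusion. The 15 genes summed to 93.7 CPM in collagen spots and 84.7 CPM in collagen-free spots, a log2 ratio of 0.15 (0.00 to 0.29). None of the 5 at the minimum was at least 1.5-fold higher, and each interval crossed 0, as for the myosin light chain Myl9 (0.43, -0.09 to 0.97) and Mylk, its kinase (0.15, -0.12 to 0.42). Cnn1 had 8 and 6 UMIs, Actg2 9 and 5, and Pln, Myocd and Casq2 were at 0 in both.

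**Figure D3:**
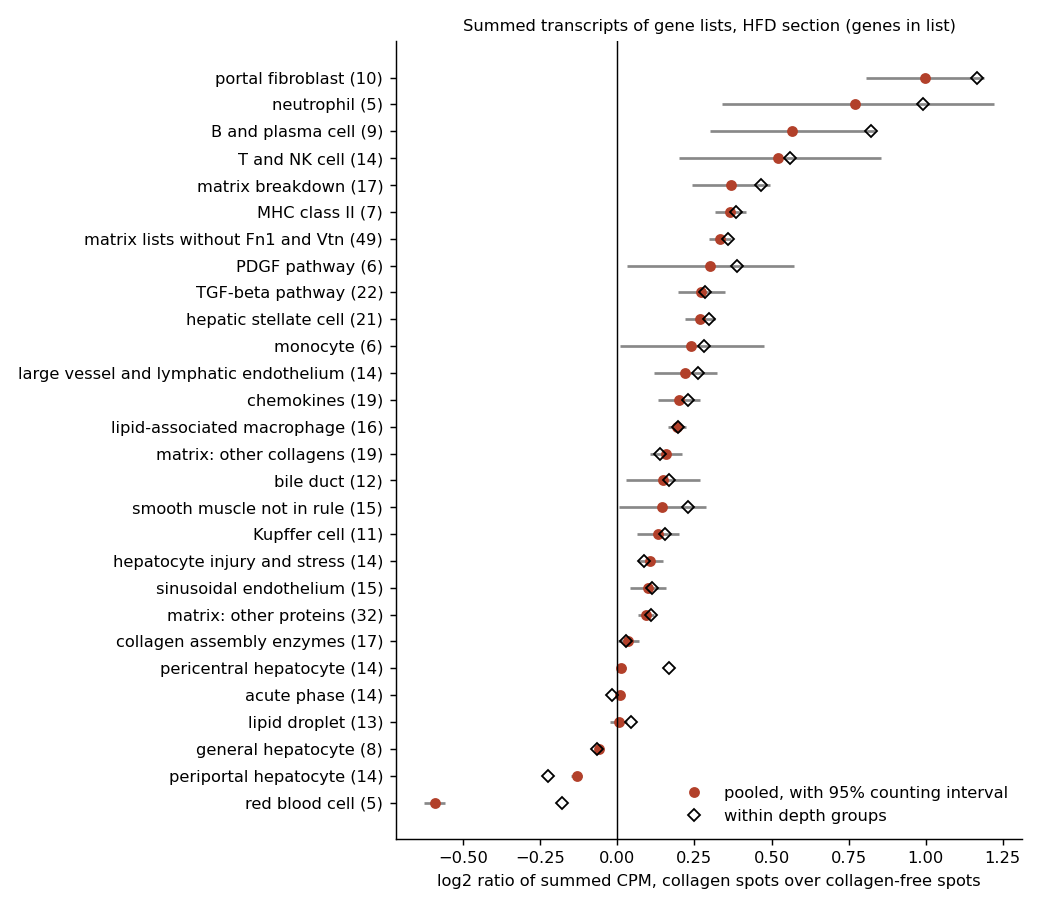
Log2 ratio of summed CPM, collagen spots over collagen-free spots, for lists of marker and pathway genes with the number of genes in brackets. Filled points are pooled ratios with 95% counting intervals and open diamonds are ratios within depth groups. Of the lists drawn, which leave out capsule mesothelium with its 23 UMIs, portal fibroblast, neutrophil, B and plasma cell, and T and NK cell genes lie highest, the general hepatocyte list lies near 0, and the red blood cell list goes from -0.59 pooled to -0.18 within depth groups.

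Macrophage transcripts were higher by modest amounts. The 15 genes of lipid-associated macrophages at the minimum had a median log2 ratio of 0.31, against 0.04 for all genes. Intervals lay above 0 for 10 of them (9.14% of all tested genes). Only Spp1 was at least 1.5-fold higher. Cd63, a lysosomal tetraspanin (0.51, 0.29 to 0.73), Lpl, the lipoprotein lipase (0.50, 0.23 to 0.78), and Gpnmb, a lysosomal glycoprotein (0.41, 0.08 to 0.74), followed. The receptor Trem2 was at 14.5 against 11.6 CPM, with an interval across 0 (0.31, -0.07 to 0.70). The list summed to 2096 against 1834 CPM, a log2 ratio of 0.19 (0.16 to 0.22), with 43.0% of the UMIs from Ctsb, a lysosomal protease not limited to macrophages. The Kupffer cell list was at 0.13 (0.06 to 0.20), and its lectin Clec4f did not differ beyond counting error (-0.06, -0.24 to 0.11).

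Antigen presentation and lymphocyte genes were higher too. MHC class II genes summed to 845 against 655 CPM, a log2 ratio of 0.37 (0.32 to 0.42) and 0.38 within depth groups, and H2-Aa (0.40, 0.30 to 0.51), H2-Ab1 (0.40, 0.28 to 0.51), H2-Eb1 (0.36, 0.23 to 0.49) and the invariant chain Cd74 (0.35, 0.28 to 0.44) were nearly alike. T and NK cell genes had 310 and 106 UMIs (0.52, 0.20 to 0.85), with none of the 14 genes at the minimum. Among B and plasma cell genes, Ighm had 118 and 15 UMIs (1.95, 1.17 to 2.83) and Igha 123 and 22 (1.46, 0.79 to 2.18), while Igkc did not differ beyond counting error (-0.12, -0.52 to 0.29). The 10 richest collagen spots held 49.0% of the list's UMIs and 1 spot held 104, so its ratio of 0.56 (0.30 to 0.84) rested on few spots. The neutrophil genes S100a8 (0.99, 0.27 to 1.78) and S100a9 (0.65, -0.00 to 1.34) were likewise concentrated, with 37.4% of the list in 10 spots. After thinning, the shares of spots with a T and NK cell UMI (8.43% and 8.07%), a B and plasma cell UMI (9.72% and 10.6%) or a neutrophil UMI (5.51% and 4.55%) overlapped within counting error. Of 12 chemokines at the minimum, none reached 1.5-fold and the summed ratio was 0.20 (0.13 to 0.27), with Ccl19, which guides T cells and dendritic cells, at 0.57 (0.01 to 1.17) and Ccl5 at 0.40 (0.18 to 0.63).

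Periportal hepatocyte genes were lower in collagen spots, while hepatocyte transcripts as a whole were nearly alike. The 8 general genes summed to a log2 ratio of -0.06 (-0.06 to -0.05). Periportal genes were at -0.13 (-0.15 to -0.11), and -0.23 within depth groups. The median of the 14 genes was -0.13, against 0.04 for all genes. Etnppl (-0.47, -0.68 to -0.25) and Hal, which degrades histidine (-0.23, -0.35 to -0.11), were lower, whereas Sdsl was at 0.33 (-0.04 to 0.72). Pericentral genes were at 0.01 (-0.00 to 0.03) pooled and 0.17 within depth groups. Glul, the glutamine synthetase of hepatocytes next to the central vein, was at 523 against 429 CPM (0.28, 0.22 to 0.34) and 0.45 within depth groups, and Slc1a2, a glutamate transporter of the same cells, at 0.26 (0.11 to 0.41) and 0.53. Plin2, which coats lipid droplets, was at 721 against 714 CPM (0.01, -0.04 to 0.06), and the lipid droplet list at 0.00 (-0.02 to 0.03). Saa1, a serum amyloid of the acute phase, was at 0.22 (0.16 to 0.29) and Lcn2 at 0.36 (0.25 to 0.48), although the acute phase list summed to 0.01 (-0.00 to 0.02). Of the injury and stress genes, only Sprr1a was at least 1.5-fold higher (0.70, 0.27 to 1.16).

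Where collagen spots lay in the lobule was read from these zonal genes. Eligible spots were split into tertiles by the log2 ratio of pericentral to periportal UMIs. Collagen spots made up 203 of 660 periportal spots (30.8%, 27.3 to 34.4), 194 of 674 middle spots (28.8%, 25.4 to 32.4) and 220 of 667 pericentral spots (33.0%, 29.4 to 36.7), so the shares overlapped. Periportal spots were deeper, with a median of 20095 UMIs against 14454 in middle and 16735 in pericentral spots. Standardised to 1 mix of depths, the shares were 26.5%, 32.5% and 33.8%. The 3 collagens made up 107 CPM (102 to 113) in the periportal, 119 CPM (113 to 126) in the middle and 131 CPM (125 to 138) in the pericentral tertile. Collagen transcripts were therefore spread over the whole lobule in spots without muscle UMIs. The level was highest in the pericentral tertile, with an interval that overlapped that of the middle tertile. This order covers only spots without muscle UMIs. The collagen spots with muscle UMIs, which were set aside, held 4843 CPM of pericentral genes, against 7739 CPM in those without.

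The accompanying genes differed by zone. Spp1 was at 280 CPM in periportal collagen spots against 110 CPM in periportal collagen-free spots, a log2 ratio of 1.35 (1.17 to 1.53), but at -0.03 (-0.27 to 0.20) in the middle and 0.43 (0.11 to 0.77) in the pericentral tertile. Gsn was at 1.67 (1.31 to 2.06) in the periportal tertile, 0.49 (0.04 to 0.94) in the middle and 0.38 (-0.07 to 0.86) in the pericentral tertile. Dcn had nearly the same ratio in each tertile, 0.50 (0.36 to 0.64), 0.46 (0.32 to 0.60) and 0.57 (0.43 to 0.70), while its level in collagen spots was 290, 344 and 442 CPM. Col6a3 was at 24.9 against 8.83 CPM in the periportal tertile, at 0.65 (-0.13 to 1.49) on the log2 scale in the middle and at 2.32 (1.12 to 3.81) in the pericentral tertile, with intervals that overlapped. Cygb was at 1.85 (0.97 to 2.86) in the periportal, 0.62 (-0.11 to 1.39) in the middle and 0.60 (-0.17 to 1.45) in the pericentral tertile, and Dpt at 1.77 (0.92 to 2.73), 0.88 (-0.08 to 1.95) and 1.34 (0.36 to 2.47). Lum had intervals above 0 in each tertile, with the lowest ratio in the middle (0.70, 0.11 to 1.33). Gelsolin, osteopontin, cytoglobin, dermatopontin and lumican thus had their highest ratios in periportal spots. Only for gelsolin and osteopontin did the periportal interval lie above those of the other tertiles.

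The levels differed with the number of collagen UMIs. In spots with 0, 1, 2, 3, 4, 5 to 9 and at least 10 collagen UMIs, Dcn was at 246, 261, 274, 303, 333, 397 and 441 CPM. Hamp was at 735, 656, 559, 565, 510, 449 and 317 CPM over the same steps. Gsn instead stayed between 25.2 and 46.2 CPM up to 9 collagen UMIs and was at 194 CPM (171 to 219) in the 42 spots with at least 10. Dpt reached 47.6 CPM (36.6 to 60.9) and Col6a3 48.4 CPM (37.3 to 61.8) in these 42 spots, against 13.1 and 18.2 CPM in spots with 5 to 9. The portal fibroblast list was at 270 CPM there and at 71.7 CPM in spots with 5 to 9, and the bile duct list at 183 and 130 CPM. The 42 spots were also the deepest, with a median of 31689 UMIs. Just outside and just inside the threshold, spots with exactly 2 collagen UMIs (386) and exactly 3 (239) held 274 and 303 CPM of Dcn, 18.5 and 17.2 CPM of Lum and 9.52 and 14.9 CPM of Col6a3.

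**Figure D4:**
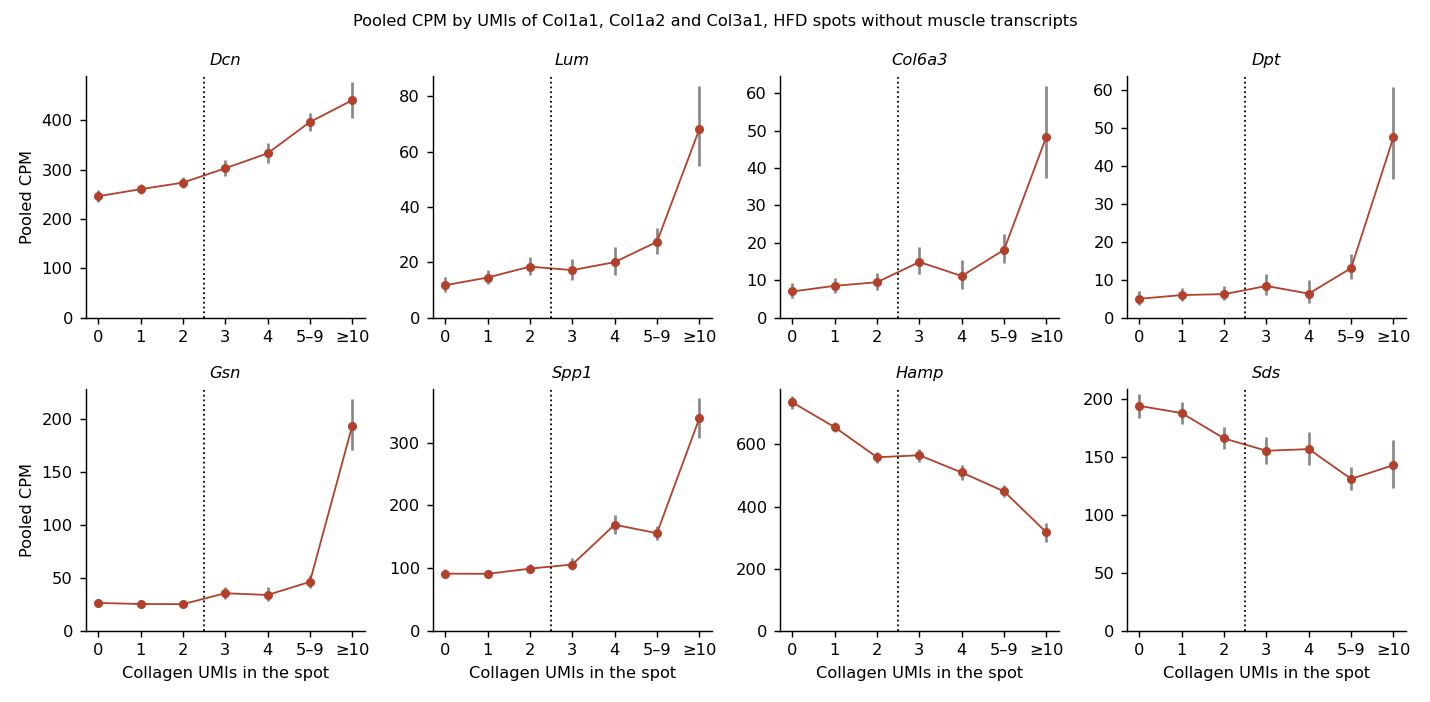
Pooled CPM of 8 genes against the number of collagen UMIs in the spot, for HFD spots without muscle UMIs, with 95% counting intervals as vertical lines. The dotted line is the threshold of the collagen spots. Dcn is higher and Hamp lower at higher collagen counts, while Gsn and Dpt are high mainly in the 42 spots with at least 10 collagen UMIs.

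Collagen spots with muscle transcripts show what the exclusion sets aside. There were 794 of them, against 174 collagen-free spots with muscle transcripts, and they held 293 CPM of the 3 collagens, against 219 CPM in the collagen spots without muscle. Among the spots with muscle UMIs, 737 of 9356 genes (7.88%) were at least 1.5-fold higher and 84 (0.898%) lower in collagen than in collagen-free spots. Compared directly, 73 of 10170 genes (0.718%) were at least 1.5-fold higher in collagen spots without muscle than in those with muscle, and 314 (3.09%) were lower. The matrix genes Mgp (10.4 against 71.8 CPM, -2.78), Mfap4 (-2.47), Fbln1 (-2.33) and Eln (-1.99), of which the last encodes elastin, were far lower without muscle. They were named by the ranking of the leading genes, applied to this comparison. So were the lymphatic chemokine Ccl21a (-3.97), the muscle calponin Cnn1 (-4.20), Gsn (-1.72, -1.83 to -1.61) and Dpt (-1.59, -1.82 to -1.36). Of the 794 spots, 331 had exactly 1 muscle UMI. These held 57.9 CPM of Gsn and 12.5 CPM of Dpt, close to the 53.6 and 13.3 CPM without muscle. Spp1 was at 210 CPM in them, against 159 CPM without muscle. The large differences in Gsn and Dpt thus lay in spots with more muscle UMIs.

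Stellate cell genes differed in both directions. The summed list was at 845 CPM without muscle and 847 CPM with muscle (-0.00, -0.04 to 0.03). Of its 19 genes at the minimum, 1 was at least 1.5-fold higher without muscle, against 0.718% of all genes. At least 1.5-fold lower were 2, against 3.09% of all genes. Adamtsl2 was lower without muscle, at 16.5 against 42.0 CPM (-1.35, -1.56 to -1.14), as was Cygb (-0.72, -0.95 to -0.49), and so was Des, which is on the smooth muscle list (-1.67, -2.09 to -1.28). Dcn was at 355 and 340 CPM (0.06, 0.01 to 0.12), the list member Reln at 49.6 and 43.4 CPM (0.19, 0.05 to 0.34) and Sept4 at 13.3 CPM in both (0.00, -0.27 to 0.27). Pericentral genes were higher without muscle (0.68, 0.66 to 0.69), as were sinusoidal endothelial genes (0.24, 0.20 to 0.29) and Kupffer cell genes (0.48, 0.42 to 0.53), with the Kupffer cell lectin Clec4f at 56.7 against 32.7 CPM. The portal fibroblast list was lower (-1.63, -1.72 to -1.53), and so were the other smooth muscle genes (-0.94, -1.03 to -0.85), matrix breakdown (-0.58, -0.65 to -0.50) and MHC class II genes (-0.39, -0.42 to -0.36). Collagen spots without muscle were thus richer in sinusoidal and pericentral transcripts than those with muscle, and poorer in those of portal fibroblasts. Collagen-free spots without muscle were near them in pericentral genes (7672 against 7739 CPM) and sinusoidal genes (502 against 537 CPM). Clec4f was at 59.2 CPM in the collagen-free spots. The higher pericentral, sinusoidal and Clec4f levels were therefore not particular to collagen spots.

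**Figure D5:**
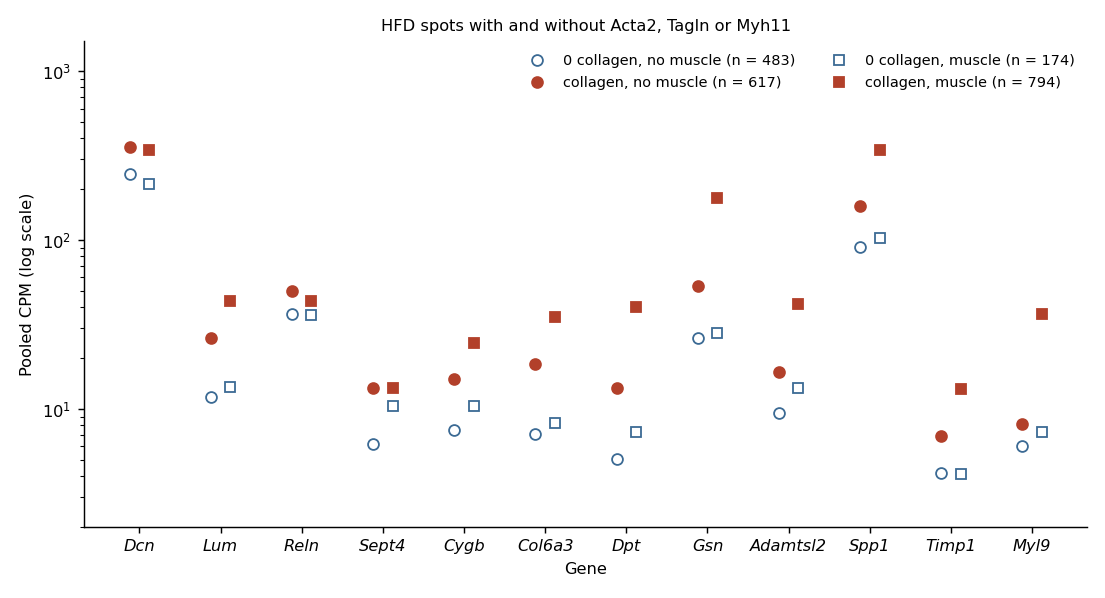
Pooled CPM on a log scale of 12 genes in 4 kinds of HFD spots, with and without collagen UMIs (filled and open) and without and with muscle UMIs (circles and squares). Dcn, Reln and Sept4 are about as high in both kinds of collagen spots, while Gsn, Dpt, Adamtsl2 and Myl9 are higher in collagen spots with muscle UMIs.

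In the NCD section the same rule found 29 collagen spots among 1461 eligible spots, against 1137 collagen-free spots. This section was shallower, with a median of 4187.5 UMIs over all 3692 spots against 18549 in the HFD section, and 1695 of its spots reached 5000 UMIs. Of 7199 genes, 785 (10.9%) were at least 1.5-fold higher in the NCD collagen spots and 793 (11%) lower, and intervals from 29 spots are wide. The matrix lists had a summed log2 ratio of 0.22 (0.16 to 0.29) and the stellate cell list of 0.14 (-0.02 to 0.29). Dpt, with 15 UMIs in collagen spots, was at 27.5 against 1.91 CPM (3.85, 2.85 to 4.80), Lum at 29.4 against 9.20 CPM (1.67, 0.83 to 2.42) and Dcn at 226 against 149 CPM (0.60, 0.33 to 0.87). Spp1 did not differ beyond counting error (0.32, -0.50 to 1.04), and the hemoglobin genes were higher there, with the red blood cell list at a log2 ratio of 1.34, against -0.59 in the HFD section. Timp1 was listed at 0 in the NCD collagen spots and had 7 UMIs in the collagen-free spots. The ratios are set side by side only, since the sections differ in depth and in animal.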

How the data were processed

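Spots of 1 NCD and 1 HFD liver section were analysed. The deposited values are unnormalized UMI counts, which the authors obtained by running Space Ranger 1.3.1. The build is mm10 in the submitters' processing notes, and the annotation is not given in the sources used here. Of 32285 gene identifiers, 32158 are in GENCODE M21, which gave the positions. The tables of spots over tissue and of all spots differed in 0 UMIs, and the sections share 3173 of the slide's fixed barcodes. Images and spot positions were not used here. UMIs were pooled over spots and divided by all their UMIs (CPM). Ratios have exact conditional binomial intervals and shares exact Clopper-Pearson intervals, at 95%. Depth groups were combined with the Mantel-Haenszel ratio, and thinning to 5000 UMIs used seed 1. The calculation was tested on simulated data. The tools were matplotlib 3.10.9, pandas 2.3.3, scipy 1.17.1 and numpy 2.4.6 under Python 3.11.15. Genes with at least 200 UMIs and the same direction within depth groups were ranked by the bound nearest to a ratio of 1, and the first 15 higher and 10 lower were named, with list members of at least 100 UMIs and defining markers. Further list members and the genes of the comparison with muscle spots were added after their values were seen. The members, lists and rules were chosen with earlier results of these data known. No count model was fitted, and alternatives changed depth, thresholds, exclusions and totals.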

Additional observations from a re-analysis of the deposited data

Results flagged for a closer look

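Collagen transcripts were also found in data that the comparisons do not use. The 1398 HFD spots off tissue held 179 UMIs of Col1a1, Col1a2 and Col3a1, which is 82.2 CPM (70.6 to 95.2). The 1300 NCD spots off tissue held 262 such UMIs at 38.1 CPM (33.7 to 43.0). With 1 section per diet, no other comparison of samples could single out a result.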

How the results depend on the processing

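The number of genes at least 1.5-fold higher (157) was 606 without the muscle exclusion, 87 without spots with portal, duct, large vessel or capsule UMIs, 625 at a looser and 13 at a stricter minimum of UMIs per gene, and 23 at 2-fold. The number lower (27) was 47 with each spot weighted alike, 43 with the background of spots off tissue taken off, 157 and 5 at these minimums, and 0 at 2-fold. The matrix lists (0.11) were at 0.075 with at least 2 collagen UMIs, 0.17 with at least 5, 0.20 without the muscle exclusion, 0.17 for spots chosen by their collagen share, 0.071 without spots with portal UMIs and 0.33 without Fn1 and Vtn. The stellate cell list (0.27) was at 0.21, 0.36 and 0.33 with at least 2, at least 5 and by share. The lipid-associated macrophage list (0.19) was at 0.16, 0.27 and 0.26 in these, and 0.29 without the muscle exclusion. The smooth muscle list (0.15) was at 0.81 without that exclusion and 0.30 by share. Held-out Col3a1 was at 1.40 with at least 3 UMIs of the other pair. The periportal share was 26.5% at standardised depth and 34.9% at a minimum of 10000 UMIs, and the middle share 32.5% and 33.2%. Of the named genes, Hbb-bs turned to 0.090 at 10000 UMIs and Cyp2f2 to 0.018 without the muscle exclusion. Without that exclusion, 20 other named and defining genes moved outside their intervals and 20 stayed within. By share 18 moved and 23 stayed, and with at least 5 collagen UMIs 17 moved and 24 stayed. Over all settings, Spp1 lay between 0.38 and 1.51 and Gsn between 0.34 and 2.25. The cause was not tested. No paired analysis was possible because each diet has 1 section. Ratios of genes with few UMIs are limited by depth, and the limits of the design are those of 2 sections.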
